A study of Mus musculus with 2 samples.

Results

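The genes described here encode the proteins of the mitochondrial ribosome, taken as every gene of the array whose symbol is *Mrpl* or *Mrps* followed by a digit. Of the 20655 genes named on the array, 78 met this rule, 49 of them *Mrpl* and 29 *Mrps*. The mitochondrial ribosome translates the few proteins that the mitochondrial genome encodes, all of them subunits of the respiratory chain and ATP synthase. Its ribosomal RNAs are mitochondrial transcripts, while its proteins are encoded in the nucleus, made in the cytosol and imported, and some descend from bacterial ribosomal proteins whereas others were added in mitochondria. The large subunit forms the peptide bond and is attached to the inner membrane, and the small subunit reads the mRNA.

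RAW264.7 cells, a macrophage line from the ascites of an Abelson murine leukemia virus-induced tumor of an adult male BALB/c mouse, were given vehicle or IR-61, a near-infrared heptamethine cyanine dye that goes to mitochondria. Total RNA was taken after 24 h and read on an Agilent single-colour mouse array, with 1 array per condition. The comparison asks how gene expression in these cells differed after IR-61. With 1 array per condition there was no replicate check, no test between the conditions was possible, and culture, array and treatment cannot be told apart. A line in culture is also limited as a model of macrophages in tissue.

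Signals are the background-subtracted intensities of the scanner software, and a level is the log2 signal minus the 75th percentile of its array, called scaled log2 level below. That percentile was 10.30 for vehicle and 10.79 for IR-61, so the IR-61 array was brighter by 0.49 before scaling. A difference is the scaled log2 level with IR-61 minus that with vehicle, and 16885 genes were well above background on both arrays. The median difference of these genes was 0.10, so the members are also read against that value. The only measurable error was that between spots of a probe printed several times, which had an SD of 0.07 with vehicle and 0.06 with IR-61 for log2 signals above 10. A difference of such a gene read on 1 spot therefore carries an expected SD of 0.09, and this covers noise within an array, not between cultures. All 9 macrophage markers on the array were well above background on both arrays. The fibroblast markers *Col1a1*, *Col1a2* and *Dcn* were also bright, with signals from 15029 to 27148 with vehicle and from 21738 to 58670 with IR-61, and their part in the results was not tested. The epithelial markers *Epcam* and *Cdh1* were not well above background in either condition. The other 2 of 4 epithelial, 4 of 4 T cell and 3 of 3 B cell markers were well above background on both arrays. Their signals were at most 1354 with vehicle and 2003 with IR-61.

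The mitochondrial ribosomal protein genes were expressed in both conditions and differed little between them. Of the 78 genes, 77 were well above background on both arrays, with signals from 234 to 40816 with vehicle and from 313 to 61406 with IR-61. Their median difference was 0.004, which is 0.10 below the median of all genes. The difference was above 0 for 39 members and below 0 for 38, where 61.2% of all genes measured were above 0. Against the median of all genes, 25 members lay above it and 52 below. The SD across the 77 members was 0.25, and across all genes it was 0.44. The members were brighter, with a median scaled log2 level with vehicle of 2.35, against -1.20 for all genes. By mean log2 signal of both arrays, the SD of all genes was 0.47 under 8 and 0.31 above 14. Above 14 it was 0.19 over 19 members.

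None of the 77 members was higher with IR-61 by 1.5-fold or more, a limit that 9.79% of all genes measured passed. Lower by 1.5-fold or more were 2 members, *Mrps5* and *Mrpl9*, where 5.69% of all genes passed. None of the members passed 2-fold in either direction, against 1.99% of all genes higher and 1.39% lower. Beyond 2 expected SDs from 0 lay 36 of 77 members, or 46.8%, against 37.7% of all genes. Of the members 22.1% were higher and 24.7% lower by that measure, and of all genes 23.5% and 14.2%. Within 1 expected SD lay 25 members, or 32.5%, against 39.0% of all genes. The expected SD is larger for dim genes and the members were brighter, so none of these shares is matched for signal. The plot of the members in order shows this narrow spread with its few outlying genes.

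**Figure D1:**
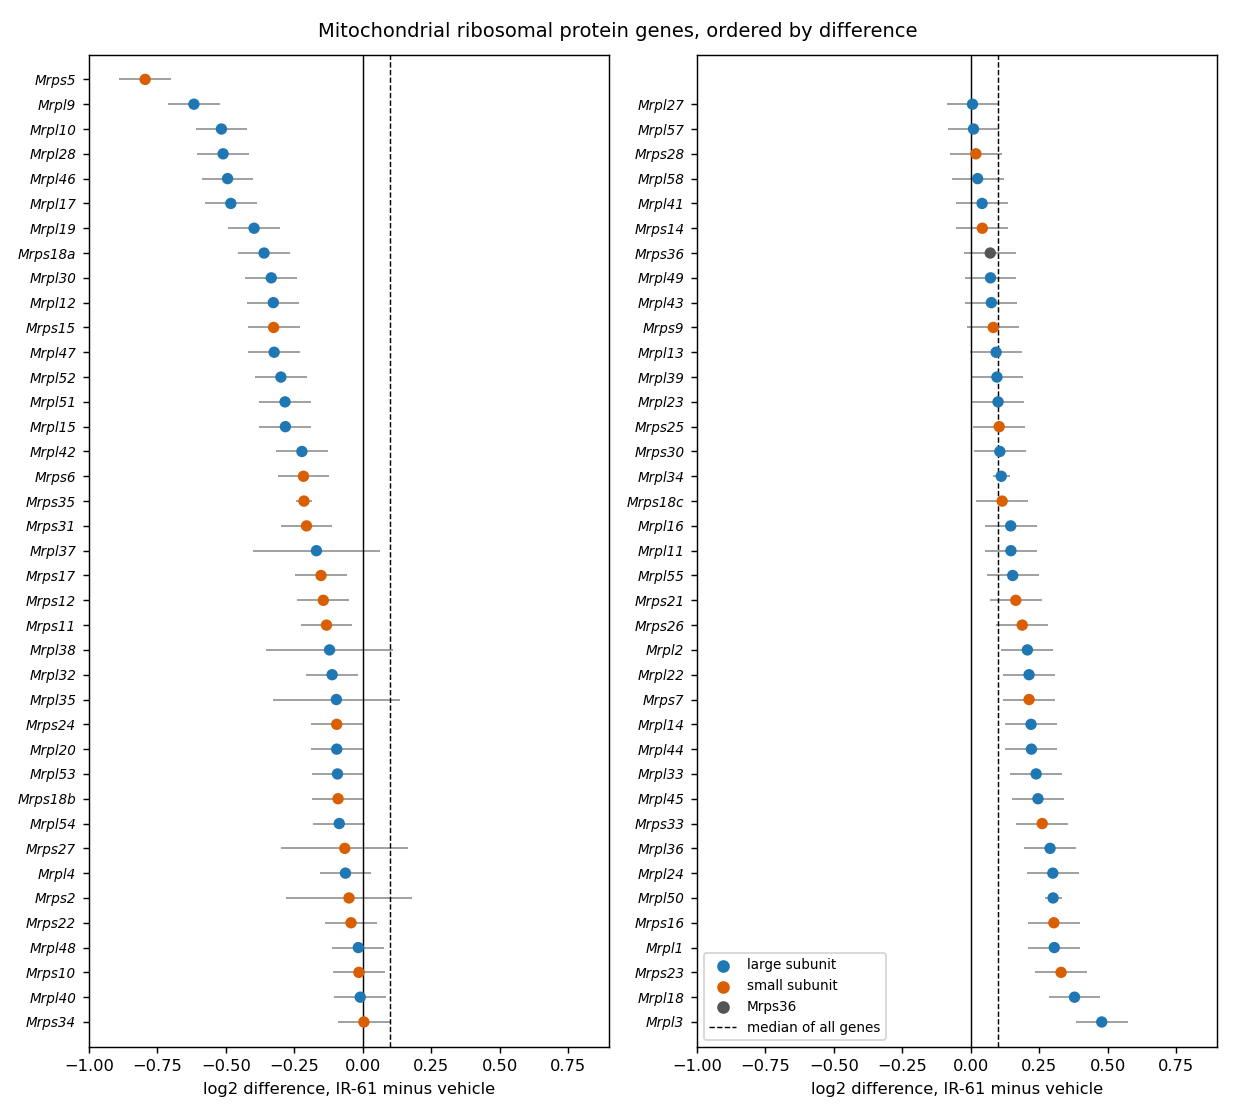
Log2 difference (x axis, IR-61 minus vehicle, scaled to the 75th percentile of each array) of the 77 measured members, ordered from the lowest at the upper left to the highest at the lower right. Bars are 1 expected SD from noise between spots, with 1 array per condition; the dashed line is the median of all genes (0.10), and the points run from -0.79 for *Mrps5* to 0.48 for *Mrpl3*.

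The lowest values were held by proteins with bacterial counterparts, *Mrps5* first. *Mrps5*, the counterpart of the small subunit protein S5, had a scaled log2 level of 0.63 with vehicle and -0.17 with IR-61. Its difference was -0.79, or 1.73-fold lower, at percentile 2.59 of all genes measured. *Mrpl9*, the counterpart of the large subunit protein L9, had a level of 1.0 with vehicle and 0.39 with IR-61. Its difference was -0.62, or 1.53-fold lower, at percentile 5.06. Both differences were more than 6 times their expected SD, at 8.40 times for *Mrps5* and 6.51 times for *Mrpl9*, and each gene was read by 1 spot of 1 probe.

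The proteins of the stalk that recruits translation factors to the large subunit were both low. *Mrpl10*, which forms the base of that stalk, went from a scaled log2 level of 0.05 with vehicle to -0.46 with IR-61, a difference of -0.52. *Mrpl12*, the counterpart of L7/L12 that the base carries, went from 2.11 to 1.78, a difference of -0.33. *Mrpl11*, beside the stalk at the site where the factors hydrolyse GTP and named here after its value was seen, went the other way, from 3.26 to 3.40. So these neighbours did not share a direction.

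Further large subunit proteins had levels lower with IR-61 by under 1.5-fold. *Mrpl28*, a counterpart of bacterial L28, went from a scaled log2 level of 1.18 with vehicle to 0.67 with IR-61, a difference of -0.51. *Mrpl46*, a protein added in mitochondria, went from 1.14 to 0.65, a difference of -0.49. *Mrpl17* went from 1.88 to 1.40, a difference of -0.48. These 3 lay more than 5 expected SDs below 0. *Mrpl19* had a difference of -0.40, *Mrps18a* of -0.36 and *Mrpl30* of -0.33. *Mrps18a* carries a small subunit name but its protein sits in the large subunit, and the other two have bacterial counterparts there.

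The highest value belonged to *Mrpl3*, whose protein reaches towards the site where the peptide bond is made. *Mrpl3* had a scaled log2 level of 2.90 with vehicle and 3.38 with IR-61, a difference of 0.48, or 1.39-fold higher, at percentile 85.2 of all genes measured. *Mrpl18*, the counterpart of the bacterial protein that binds 5S ribosomal RNA, had a level of 2.85 with vehicle and 3.23 with IR-61, a difference of 0.38. These were 5.05 and 4.0 times their expected SD. So the top of the members lay closer to 0 than the bottom, and in the upper part, but not the tail, of all genes.

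Other members on the high side had differences of 0.24 to 0.33 and came from both subunits. In the small subunit these were *Mrps23* at 0.33, *Mrps16* at 0.30 and *Mrps33* at 0.26. In the large subunit, *Mrpl1*, the counterpart of the protein of the L1 stalk through which spent tRNA leaves, went from a scaled log2 level of 0.83 with vehicle to 1.13 with IR-61, a difference of 0.30. *Mrpl24*, at the opening of the tunnel through which the new protein leaves, went from 3.69 to 3.99, also a difference of 0.30. *Mrpl45*, which holds the large subunit to the inner membrane, went from 2.37 to 2.62, a difference of 0.24. *Mrpl36*, a small protein with a bacterial counterpart, differed by 0.29, and *Mrpl50*, added in mitochondria, by 0.30. Each lay between 2 and 10 expected SDs above 0.

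Most members singled out for their role lay near 0. *Mrps12*, the counterpart of the S12 protein of the decoding centre, had a scaled log2 level of 2.21 with vehicle and 2.06 with IR-61, a difference of -0.14. *Mrpl58*, a peptidyl-tRNA hydrolase that became part of the large subunit, had 3.09 with vehicle and 3.11 with IR-61, a difference of 0.02. *Mrps30*, which sits in the large subunit despite its name, differed by 0.11. The paralogs of bacterial S18 spread from *Mrps18a* at -0.36 through *Mrps18b* at -0.09 to *Mrps18c* at 0.11. *Mrps36*, whose protein belongs to the 2-oxoglutarate dehydrogenase complex rather than to either subunit, differed by 0.07. A dimmer probe of *Mrps36*, with a vehicle signal of 8886 beside 11723, differed by -0.37, and the mean over both by -0.15.

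*Mrpl21* was the 1 member not measured on both arrays, with a signal of 10.9 that was not well above background with vehicle and a brighter one that was above it with IR-61. Against the lowest signal well above background on the vehicle array, 12.8, its lower bound was 1.22-fold higher with IR-61, or 0.29 on the log2 scale. That is within the expected SD of its difference, 0.46. The bound was 0.04 with quantile normalization and in the deposited log2 values. Another 6 symbols of the same form are pseudogenes in the gene table and had no named probe.

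The subunits had medians close to each other. The 50 large subunit genes had a median difference of 0.008 with an SD across genes of 0.27, and the 26 small subunit genes a median of -0.03 with an SD of 0.23. Both medians lay below that of all genes, by 0.09 for the large and 0.13 for the small subunit. The medians were also close by origin, at -0.004 for 44 proteins with a bacterial counterpart and 0.004 for 29 added in mitochondria. The SD across genes was 0.29 in the first set and 0.20 in the second, and the first held both the lowest and the highest member.

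The members printed 10 times on each array give the best view of noise within an array. *Mrps35* had a scaled log2 level of 0.09 ± 0.08 (SD, n = 10 spots) with vehicle and -0.13 ± 0.04 (SD, n = 10 spots) with IR-61, and the spots did not overlap. *Mrpl50* had 1.96 ± 0.04 (SD, n = 10 spots) with vehicle and 2.26 ± 0.04 (SD, n = 9 spots) with IR-61, again with no overlap. *Mrpl34* had 2.84 ± 0.08 (SD, n = 9 spots) with vehicle and 2.95 ± 0.06 (SD, n = 10 spots) with IR-61, and its spots overlapped. Spots of an array are not replicates of a condition, so these values measure only how well each array read its own RNA. Overlap was read on scaled levels and depends on the scaling. Without scaling the differences were 0.27 for *Mrps35*, 0.79 for *Mrpl50* and 0.60 for *Mrpl34*.

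Among the members the difference was correlated with signal. Across the 77 members the correlation of the difference with the mean log2 signal of both arrays was 0.46 (Pearson) and 0.52 (Spearman), and across all genes measured it was -0.04 for each. These are correlations across genes of the same pair of arrays, which are not independent. The 14 members with a mean log2 signal of 10 to 12 had a median difference of -0.27, where all genes of that range had 0.08. The 39 members from 12 to 14 had a median of 0.02 and all genes there 0.14, while the 19 members above 14 had 0.16 and all genes there 0.07. The 5 members from 8 to 10 lay between -0.17 and -0.05. Over the ranges from 10 upwards the members' median increased with signal, as the plot of difference against signal shows, while single members went against it. A difference above 0 was found in 14 of the 19 members above 14 and 3 of the 14 from 10 to 12. Of all genes measured 61.2% were above 0, a share that was not counted by signal range. A split at a mean log2 signal of 12 was chosen after the data were seen. There 19 dimmer members had a median of -0.17 and 58 brighter ones 0.06, while all genes had 0.10 and 0.11. The members' medians were -0.14 and -0.01 with quantile normalization, -0.17 and -0.004 with the mean over probes, and -0.19 and 0.06 with normexp. All genes had 0.03 and 0.06, 0.08 and 0.07, and -0.08 and 0.13 in these settings. Of the other lists, Pearson and Spearman correlations were -0.18 and -0.14 over 84 cytosolic ribosomal protein genes and 0.34 and 0.31 over 37 complex I genes. Over 38 genes of complexes II to V they were 0.47 and -0.004. So the Pearson correlation of the members was matched by that of complexes II to V, and their Spearman correlation by none of these lists.

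**Figure D2:**
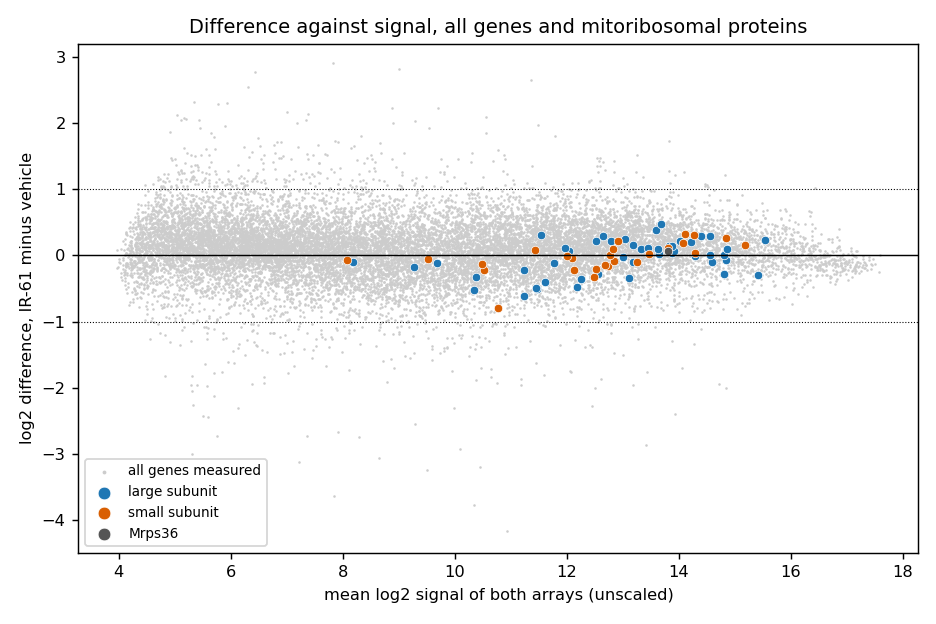
Log2 difference (y axis, IR-61 minus vehicle) against the mean log2 signal of both arrays (x axis, unscaled) for 16885 genes in grey and the 77 measured members in colour; dotted lines mark 2-fold. Members with a mean signal of 10 to 12 have a median of -0.27 and those above 14 a median of 0.16, and none reaches 2-fold.

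Within genes, the brighter probe tended to give the higher difference over the whole array, members included. Of the members, 22 had several probes, 2 each, all well above background, and the brightest probe stands for the gene in the values above. The brighter probe gave the higher difference in 16 of 22 members, or 72.7%, against 66.1% of 4160 genes of the array with several probes and 34.7% of 49 cytosolic ribosomal protein genes. The median difference was 0.06 over the brighter and -0.30 over the dimmer probes of these members, where all genes with several probes had 0.10 and -0.07. The pair differed by 0.5 or more in 9 of 22 members, or 40.9%, against 33.1% of all genes with several probes.

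For 7 of these 22 members, or 31.8%, the probes disagreed in sign by 0.5 or more, against 24.3% of all genes with several probes, so the direction of these genes depends on the probe. *Mrps26* differed by 0.19 on its brighter and -0.65 on its dimmer probe. *Mrps23*, one of the high members above, differed by 0.33 on the brighter and -0.44 on the dimmer probe. *Mrpl50* differed by 0.30 and -0.29, so the tight agreement of its 10 spots belongs to 1 of its probes. *Mrpl22*, an exit tunnel protein, differed by 0.21 and -0.31, and *Mrpl39*, which resembles threonyl-tRNA synthetase, by 0.09 and -0.44. *Mrpl27* (0.006 and -0.52) and *Mrpl41* (0.04 and -0.49) showed the same order. *Mrps33*, also among the high members above, differed by 0.26 and -0.08, a gap under 0.5, and by 0.09 as the mean over its probes. *Mrpl10* was low on both of its probes, at -0.52 and -0.38, and is the only one of the 6 lowest members with more than 1 probe. Counted by probe, 99 probes of the members were measured. Higher by 1.5-fold or more was 1, the dimmer probe of *Mrps25* at 0.63. Lower were 4, among them the dimmer probe of *Mrps18b* at -0.80. How many of all 21840 named probes measured passed this limit was not counted.

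**Figure D3:**
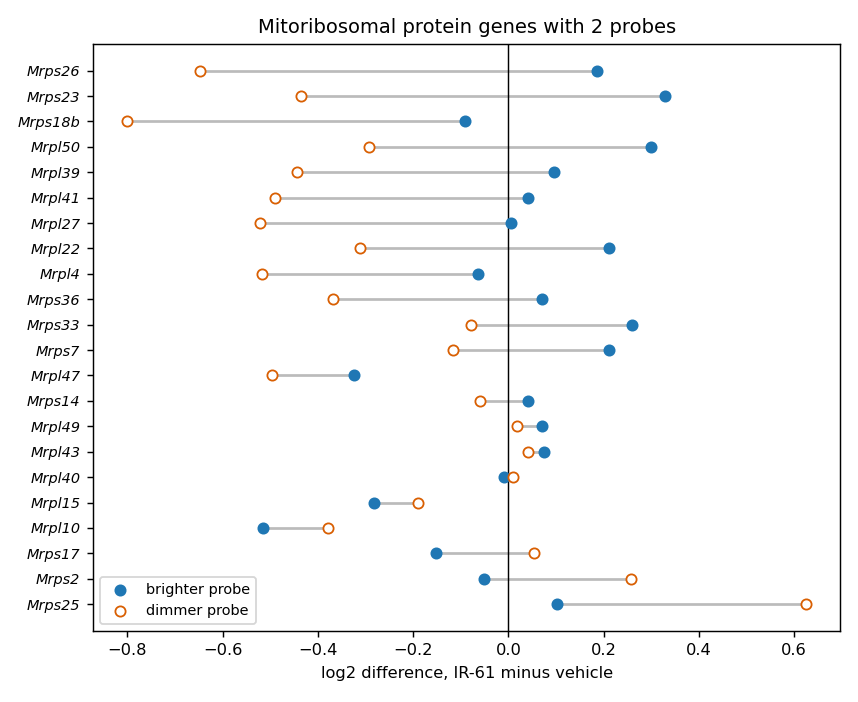
Log2 difference (x axis, IR-61 minus vehicle) on the brighter probe (filled) and the dimmer probe (open) of the 22 members with 2 probes, ordered by the gap between them. In 16 of 22 members the brighter probe gives the higher value, and the medians are 0.06 and -0.30.

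The promoters of the members are shown for the genes with the largest differences, the highest *Mrpl3* and *Mrpl18* and the lowest *Mrps5* and *Mrpl9*. Each line is the 250 bases before the annotated start of the gene in RefSeq on GRCm38.p6, read 5′ to 3′ on the strand of the gene. They lie at chr9:105053018-105053267 (plus strand), chr17:12916092-12916341 (minus strand), chr2:127587176-127587425 (plus strand) and chr3:94443086-94443335 (plus strand). Capitals mark exact matches, on either strand, to the motifs named after the lines.
Mrpl3: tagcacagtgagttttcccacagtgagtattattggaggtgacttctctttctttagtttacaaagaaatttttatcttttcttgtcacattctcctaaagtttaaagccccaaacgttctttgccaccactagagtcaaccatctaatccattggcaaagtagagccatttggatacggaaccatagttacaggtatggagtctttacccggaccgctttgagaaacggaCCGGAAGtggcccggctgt
Mrpl18: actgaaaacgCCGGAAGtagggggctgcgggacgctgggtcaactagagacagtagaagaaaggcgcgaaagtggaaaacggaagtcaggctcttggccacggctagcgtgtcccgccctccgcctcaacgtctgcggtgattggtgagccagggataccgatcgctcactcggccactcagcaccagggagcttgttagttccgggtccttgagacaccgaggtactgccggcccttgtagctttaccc
Mrps5: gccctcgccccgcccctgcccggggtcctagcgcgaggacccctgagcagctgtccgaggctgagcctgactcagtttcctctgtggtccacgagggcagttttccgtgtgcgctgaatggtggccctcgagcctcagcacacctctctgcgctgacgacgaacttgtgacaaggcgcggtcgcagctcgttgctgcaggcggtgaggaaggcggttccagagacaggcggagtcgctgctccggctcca
Mrpl9: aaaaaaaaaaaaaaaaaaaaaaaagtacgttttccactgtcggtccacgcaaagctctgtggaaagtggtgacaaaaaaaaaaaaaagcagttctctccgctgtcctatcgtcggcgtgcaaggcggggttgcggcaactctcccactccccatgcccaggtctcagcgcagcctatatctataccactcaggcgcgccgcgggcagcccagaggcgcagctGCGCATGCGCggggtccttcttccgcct

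The motifs searched on both strands of each promoter window, 250 bases before to 50 bases after the start, were CCGGAAG (bound by ETS factors such as GABP), AAGATGGCG (YY1), the palindrome of NRF1, CACGTG (E-box) and TATAAA. A promoter entry was found for 69 of the 78 members, 75 promoters in all. CCGGAAG stood in 34.7% of the member promoters, against 8.86% of all 32851 promoters of the table and 13.8% of those of genes measured here. AAGATGGCG stood in 10.7% of member promoters, 1.4% of all and 2.3% of those of measured genes, and it overlapped a CCGGAAG match in 0 of the member promoters. The NRF1 palindrome stood in 4.0% of member promoters, 0.971% of all and 1.55% of those of measured genes. CACGTG stood in 9.33%, 7.15% and 8.82%, and TATAAA in 6.67%, 13.6% and 10.1%.

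The differences of members with and without a match overlapped. The 25 measured members with CCGGAAG had a median difference of 0.02 (SD across genes 0.24) and the 43 without it -0.009 (SD 0.27). Among the 10 highest members *Mrpl3*, *Mrpl18*, *Mrps23*, *Mrps16* and *Mrps33* held such a match. Among the 10 lowest *Mrpl17* and *Mrps18a* held it, and *Mrpl19* had no promoter entry. The 8 members with AAGATGGCG had a median of -0.11 and the 60 without it 0.06. The NRF1 palindrome stood in *Mrpl9*, *Mrpl32* and *Mrpl39*, and *Mrps5* held none of the 5 motifs. A match of letters is a description and shows no binding.

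Around the ribosome, other genes of mitochondrial translation were read as lists, shown in the plot of gene lists. Of 5 mitochondrial ribosomal proteins that go under other symbols, all 5 had a difference above 0, beside 61.2% of all genes measured. Their median was 0.18. Against the median of all genes, 4 lay above it and *Aurkaip1* below. *Dap3*, a GTP-binding protein of the small subunit first described in cell death, had a scaled log2 level of 3.03 with vehicle and 3.21 with IR-61, a difference of 0.18. *Ptcd3*, a pentatricopeptide repeat protein, differed by 0.31, *Gadd45gip1* by 0.20, *Chchd1* by 0.17 and *Aurkaip1* by 0.09. With these 5 included, the 82 measured genes had a median of 0.01, 29 of them above the median of all genes.

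Of 13 measured translation factors, 8 had differences above 0, or 61.5% beside 61.2% of all genes, and the median was 0.22, with *Tsfm*, the exchange factor of the elongation factor Tu, lowest at -0.50 and *Guf1*, a GTPase related to bacterial LepA, highest at 0.62. The 19 measured aminoacyl-tRNA synthetases, which load tRNAs with amino acids, had a median of 0.05, from *Iars2* at -0.72 to *Wars2* at 1.20. *Wars2* was the 1 gene of these lists past 2-fold, from a signal of 100.2 with vehicle to 324 with IR-61. The 28 genes of ribosome assembly and rRNA modification had a median of -0.05, with *Mettl17* lowest at -0.67 and *Mettl15*, which methylates the small subunit rRNA, highest at 0.66. The list of mitochondrial transcription also holds the nuclear regulators *Nrf1*, *Gabpa*, *Ppargc1a*, *Ppargc1b* and *Pprc1*. Its 14 genes had a median of 0.28, with the elongation factor *Tefm* lowest at -0.53 and the coactivator *Ppargc1a* highest at 0.80. These extreme genes had low signals, and the expected SD of their differences was 0.16 to 0.23.

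The cytosolic ribosomal protein genes had a lower median than the members, an order that turned with quantile normalization and in the deposited log2 values. Relative to all genes, the quantile-normalized medians were -0.07 for the cytosolic genes and -0.10 for the members, and those of the deposited values -0.06 and -0.10. Both deposited columns share their median and quartiles, so they may not be a separate setting from quantile normalization. With scaling by the 75th percentile, of 84 measured cytosolic genes, 64 had a difference below 0 and 79 lay below the median of all genes, with a median of -0.09 and an SD across genes of 0.20. The lowest was *Rpl7l1* at -0.83 and the highest *Rpl39l* at 0.93, both variants of a core protein. The nuclear respiratory chain subunits, with which the products of the mitochondrial ribosome assemble, had medians of 0.05 for 37 genes of complex I and 0.02 for 38 genes of complexes II to V. *Ndufa10* at -0.76 and *Uqcrc1* at -0.63 were the lowest of each, and *Ndufb3* at 0.35 and *Cox7a2* at 0.28 the highest. No test of these differences between lists was made.

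**Figure D4:**
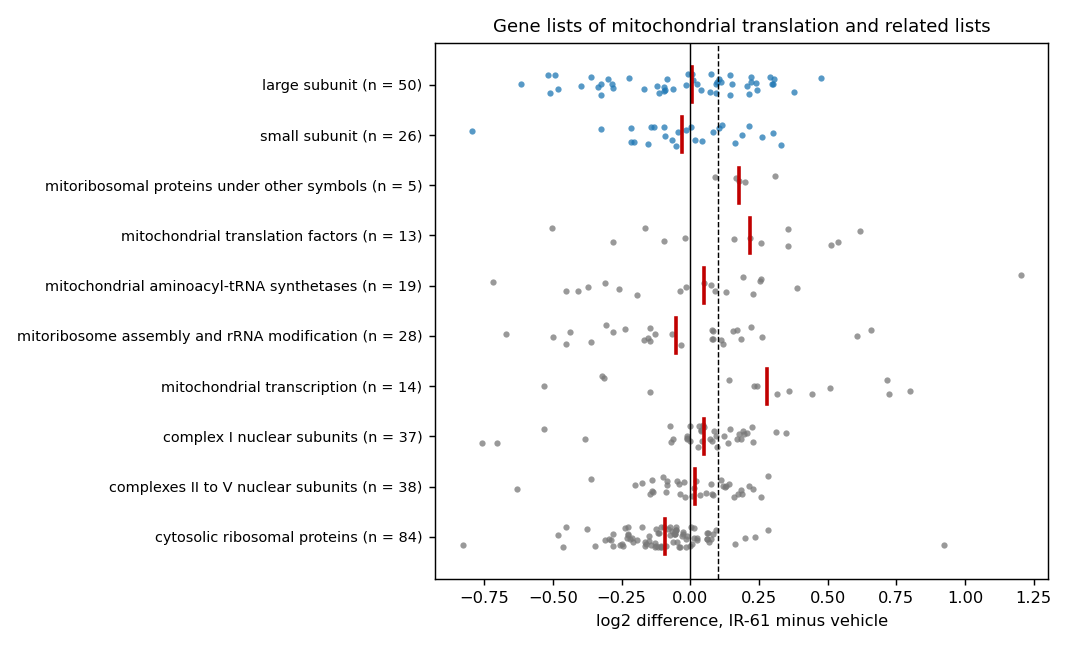
Log2 difference (x axis, IR-61 minus vehicle) of each measured gene, as a point, in the large and small subunit members (blue) and in other lists (grey); red bars are list medians and the dashed line is the median of all genes (0.10). The members' medians are 0.008 and -0.03. The list medians run from -0.09 for cytosolic ribosomal proteins to 0.28 for mitochondrial transcription, a list that includes nuclear regulators.

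The sign of single differences depended on the scaling. Without scaling, 72 of 77 members and 92.1% of all genes had a difference above 0, among them *Mrpl17*, *Mrpl19*, *Mrps18a*, *Mrpl30* and *Mrpl12* of the low members named above, while *Mrps5* was at -0.31, *Mrpl9* at -0.13, *Mrpl10* at -0.03, *Mrpl28* at -0.02 and *Mrpl46* at -0.005. The place of the members against all genes changed in the normexp setting. That setting also used another spot signal and an offset of 50, and which of these mattered was not tested. With normexp correction of the spot signals, the median of all genes became -0.03 and that of the members lay 0.03 above it, with 40 members above and 37 below the median of all genes. *Mrps5* stayed the lowest and *Mrpl3* the highest measured member under that correction, at -0.78 and 0.46.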

How the data were processed

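RNA of vehicle- and IR-61-treated RAW264.7 cells was read on 1 Agilent single-colour array each. The authors deposited spot intensities from Agilent Feature Extraction (version 11.0.1.1 per the file headers, 11.0.0.1 per the labels), background-subtracted, and a table of log2 values whose normalization is not given in the sources used here. Both deposited log2 columns share their median, 7.15, and their quartiles, 4.59 and 10.66, as columns after quantile normalization do. They correlate with the log2 intensities at 0.9995 (vehicle) and 0.9988 (IR-61).

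Of 44397 spots, 43020 were not controls; outlier spots (124 and 139) were left out, and 0 spots were saturated. Log2 intensities were averaged over the spots of a probe and scaled by subtracting each array's 75th percentile. Gene names came from matching accessions to a RefSeq gene table of GRCm38.p6, used for names only because the design names mm9: 27224 of 39429 probes, for 20655 genes. Each gene took its brightest probe. Probes well above background made up 77.6% with vehicle and 81.2% with IR-61. The number of arrays limits the precision, and no test was run.

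Named are the 10 highest and 10 lowest measured members, those not well above background, with probes that disagree by 0.5 or more, printed 5 or more times, or of a stated role, and the highest and lowest gene of each list; *Mrpl11*, *Mrpl32* and *Mrps25* were named after their values were seen. The members and lists were chosen with earlier results of these data known. Cell type marker lists were macrophage, T cell, B cell, epithelial and fibroblast. Alternatives were other scalings (median, detected probes, quantile, loess, none), the deposited log2 values, normexp, the mean over probes, spot and dim-probe filters and a trend over the array. Python 3.11.15, pandas 2.3.3, numpy 2.4.6, matplotlib 3.10.9 and, in R 4.3.3, limma 3.58.1 were used. The steps were tested on simulated data.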

Additional observations from a re-analysis of the deposited data

How the results depend on the processing

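No paired analysis was possible because there was only 1 array for each condition, so no replicate could be left out either. Members lower by 1.5-fold or more numbered 2 in the report (5.69% of all genes), 4 with median scaling (7.57%) and 0 without scaling (1.14%). They numbered 1 with normexp (4.51%) and 0 at a 2-fold limit (1.39%). When probes were counted they numbered 4, and the share over all probes was not counted. Members higher numbered 0 in the report, 26 without scaling (33.8% of members and 50.5% of all genes) and 1 when probes were counted. Without scaling the members' median was 0.49 and that of all genes 0.59, a shift that includes the brightness of the IR-61 array. With normexp, run on the median spot signal with an offset of 50, the median relative to all genes was 0.030 for the members. It was 0.057 for the large and -0.012 for the small subunit. The other settings kept the members' value below 0, and the cause of the change with normexp was not tested. Scaling by the median, scaling over detected probes and no scaling shift every gene equally. They cannot change a member's place against the median of all genes, or the order of the members. These settings are therefore no separate check of either. Of the 25 members above the median of all genes, 16 stayed above it under all 12 settings, with these included. Of the 52 members below it, 36 stayed below. *Mrps5* was the lowest member under each setting, and *Mrpl3* the highest except without a filter on dim probes, where it was *Mrpl21*. The noise between spots is larger for dim genes, so differences of members with low signals are less certain.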
